A study of Mus musculus with 4 samples.

Results

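The genes of steroid hormone production in Leydig cells were followed through RNA of sorted germ cells, as a measure of how much RNA of this somatic cell type each library held. Members were the rows named *Star*, *Cyp11a1*, *Cyp17a1*, *Hsd3b1*, *Hsd3b6*, *Insl3*, *Hsd17b3* and *Lhcgr*, found by these names, and all 8 were present among the 24411 genes listed in each library. The cells came from testes at postnatal day 18 and were sorted for GFP, which the *Rec8-3FH-GFP* KI allele makes together with the meiotic cohesin REC8. RNA was sequenced from 2 control *Zfp541*+/− testes and 2 testes labelled *Zfp541* KO. The null allele of the study lost a run of exons of *Zfp541*, starting in exon 1, by genome editing. All 4 carried the knock-in. One control was heterozygous for it and the other homozygous, without the labels saying which, and both animals labelled *Zfp541* KO were homozygous. The strain label names a mix of C57BL/6 and CBA, whereas the study describes editing in C57BL/6 eggs. Each library came from 1 testis, so the spread given here is between animals. Between the controls it cannot be told apart from the zygosity of the knock-in.

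Expression was deposited as TPM, a measure of abundance corrected for transcript length and scaled to a fixed sum, so sequencing depth and counting error were unknown and no interval for them is given. *Zfp541* itself had 112 TPM in control 1 and 72.2 TPM in control 2. It was at 136 TPM in the library labelled *Zfp541* KO 1 and 151 TPM in that labelled *Zfp541* KO 2, above both controls. The deletion the study describes begins in exon 1, and these RNA values do not bear out the KO label. The values per gene do not separate deleted from remaining exons, so genotypes rest on the labels, and these libraries are called labelled KO 1 and labelled KO 2. *Rec8* was at 7.05 TPM in control 1, 27.85 TPM in control 2, 27.7 TPM in labelled KO 1 and 19.4 TPM in labelled KO 2. The library lowest in *Rec8* was thus control 1. All 14 markers of meiotic prophase were detected in every library, with a summed level of 7087 to 10145 TPM, which was 0.709 to 1.01% of a library. The sum hid opposite orders. It was highest in control 1, where *Ldhc*, *Ybx2* and *Pgk2* were highest but *Sycp3* and *Rec8* lowest.

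Leydig cells lie between the seminiferous tubules and make testosterone from cholesterol when luteinizing hormone raises their cyclic AMP. STAR carries cholesterol into the mitochondria, CYP11A1 cuts its side chain to give pregnenolone, and enzymes of the HSD3B and CYP17A1 steps and finally HSD17B3 turn this into testosterone. Spermatocytes do not make androgens, and in the postnatal testis the whole set is known as a signature of Leydig cells.

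In the GENCODE annotation of GRCm38, the assembly UCSC names mm10, *Lhcgr*, the receptor for luteinizing hormone, lies on chromosome 17 from 88716481 to 88791990 on the reverse strand. *Star* lies on chromosome 8 from 25806555 to 25815982 on the forward strand. *Cyp11a1* lies on chromosome 9 from 58006411 to 58027023 on the forward strand and *Cyp17a1* on chromosome 19 from 46667165 to 46673172 on the reverse strand. *Hsd3b6*, from 98805504 to 98814443, and *Hsd3b1*, from 98852194 to 98859794, are neighbours on the reverse strand of chromosome 3 with 37750 bases between them. *Hsd17b3* lies on chromosome 13 from 64058266 to 64089230 on the reverse strand. *Insl3*, which encodes the Leydig cell peptide that guides testis descent, lies on chromosome 8 from 71689214 to 71690575 on the forward strand, with 2 exons.

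Reads were 75 bases long, and the longest protein-coding transcript of each member was searched for stretches of that length that also occur in a transcript of another gene. *Star*, *Cyp11a1*, *Cyp17a1*, *Hsd17b3* and *Lhcgr* had 0% of such stretches. The coding sequences of *Hsd3b1* and *Hsd3b6* were both 1119 bases long and matched at 90.0% of positions, yet the longest identical run was 72 bases and 0 stretches of read length were shared between them. In *Hsd3b6*, 7.93% of the stretches also occur in *Hsd3b2* or *Hsd3b3*, which were at 0 to 0.19 TPM in the 4 libraries. In *Insl3*, 60.1% also occur in an annotated transcript of *Jak3*, a kinase gene on the same strand, so how reads were divided between these genes depends on the annotation the authors used. *Jak3* was at 11.1 TPM in control 1, 3.96 TPM in labelled KO 1 and 3.97 TPM in labelled KO 2, and lower still in control 2, below *Insl3* in all 4 libraries.

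The upstream sequences of the most abundant member and of the neighbouring *Hsd3b* pair are shown, since these 3 genes carried most of the signal below. Each is the 250 bases before a RefSeq transcription start in GRCm38.p6, written 5′ to 3′ on the strand of the gene, and capitals mark the GATA motif AGATAA on either strand. *Insl3* is chr8:71689002-71689251 on the forward strand, *Hsd3b1* is chr3:98859795-98860044 on the reverse strand and *Hsd3b6* is chr3:98814444-98814693 on the reverse strand.
Insl3: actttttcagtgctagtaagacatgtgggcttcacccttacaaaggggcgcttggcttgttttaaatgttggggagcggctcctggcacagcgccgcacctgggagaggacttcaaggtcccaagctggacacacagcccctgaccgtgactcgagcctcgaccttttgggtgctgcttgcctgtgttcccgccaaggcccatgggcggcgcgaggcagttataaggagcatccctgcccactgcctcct
Hsd3b1: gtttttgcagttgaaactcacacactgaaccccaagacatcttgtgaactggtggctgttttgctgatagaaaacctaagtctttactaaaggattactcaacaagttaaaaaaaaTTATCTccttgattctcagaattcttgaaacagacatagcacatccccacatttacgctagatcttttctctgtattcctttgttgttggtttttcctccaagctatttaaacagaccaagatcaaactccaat
Hsd3b6: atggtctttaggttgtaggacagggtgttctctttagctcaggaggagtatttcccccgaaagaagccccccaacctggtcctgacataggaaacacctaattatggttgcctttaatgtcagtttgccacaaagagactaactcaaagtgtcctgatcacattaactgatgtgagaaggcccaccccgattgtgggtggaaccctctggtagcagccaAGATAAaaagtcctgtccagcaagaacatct
The motif lay 134 to 129 bases before the start of *Hsd3b1* and 31 to 26 bases before that of *Hsd3b6*. It occurred in 2 of the 6 members with a promoter in the RefSeq table and in 9.99% of all 32851 promoters of the same length. The site CAAGGNCA of NR5A1, the steroidogenic factor, and the full cyclic AMP response element TGACGTCA were found in 0 of the 6, against 5.53% and 1.55% of all promoters. *Star* and *Cyp17a1* had no entry in the table.

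All 8 members had their highest level in control 1, their lowest in control 2, and intermediate levels in both libraries labelled *Zfp541* KO. Of the 14512 genes that passed a filter on the mean (1 TPM or more over the libraries), 20.3% had this order. The 8 genes together reached 3669 TPM in control 1, or 0.367% of that library, and 20.5 TPM in control 2, or 0.00205%. They added to 401 TPM in labelled KO 1 and 622 TPM in labelled KO 2, which was 0.0401% and 0.0622%. The controls thus lay 179-fold apart in the summed level, and the libraries labelled *Zfp541* KO 1.55-fold. In RNA of a cell mixture such as this, fewer Leydig cells and less RNA per Leydig cell cannot be told apart.

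**Figure D1:**
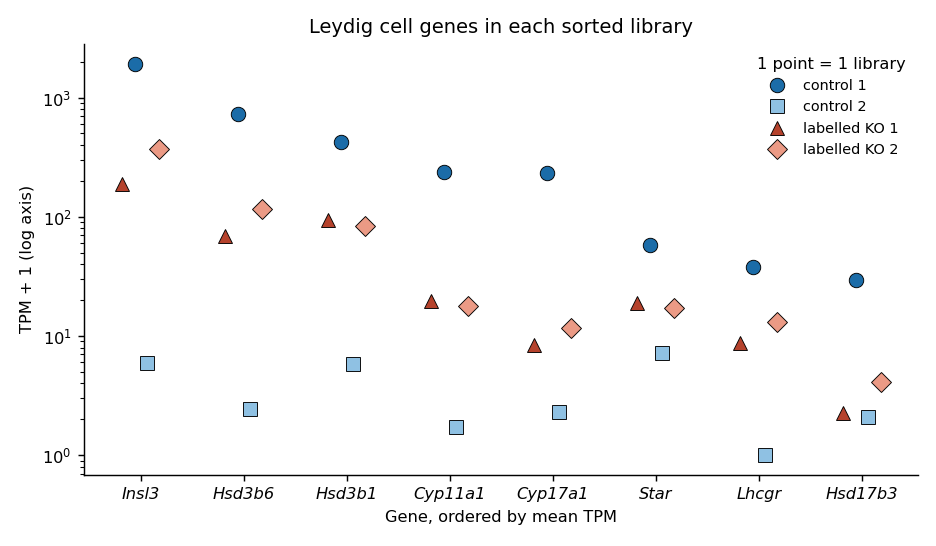
TPM + 1 of the 8 Leydig cell genes on a log axis, with 1 point for each of the 4 libraries. In every gene control 1 is highest and control 2 lowest, and the libraries labelled KO 1 and 2 lie between them.

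The hormone gene *Insl3* was the most abundant member in control 1, at 1925 TPM, where it ranked 21st of all genes listed. It was at 4.99 TPM in control 2, rank 10225, at 186 TPM in labelled KO 1 and at 366 TPM in labelled KO 2. The hormone transcript was thus among the leading RNAs of 1 of the 4 sorted populations. *Lhcgr*, through which these cells receive the gonadotropin signal, was at 36.7 TPM in control 1 and 7.78 and 12.2 TPM in labelled KO 1 and 2. It was listed at 0 in control 2, the only member at 0 in any library.

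Of the cholesterol-handling steps, *Star* was at 57.0 TPM in control 1, 6.18 TPM in control 2, 18.1 TPM in labelled KO 1 and 16.2 TPM in labelled KO 2. This was the flattest of the 8 profiles between the controls, with 9.23-fold between them. *Cyp11a1*, the side-chain cleavage enzyme, was at 235 TPM in control 1, 0.72 TPM in control 2, 18.7 TPM in labelled KO 1 and 16.8 TPM in labelled KO 2. On the scale of TPM + 1, 7 of the 8 members were at least 10-fold higher in control 1 than in control 2, *Star* being the exception, against 2.56% of all genes tested. These 7 also had both libraries labelled *Zfp541* KO between the controls, as all 8 members did. Of all genes, 2.04% met both conditions. It follows from this order that 0 members had both libraries labelled *Zfp541* KO above both controls, which 38.6% of all genes had.

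Of the enzymes that follow, *Hsd3b6* was at 730 TPM in control 1, 1.43 TPM in control 2, 68.2 TPM in labelled KO 1 and 115 TPM in labelled KO 2. Its neighbour *Hsd3b1* was at 425, 4.77, 93.4 and 81.9 TPM in the same order. The controls were 511-fold apart in *Hsd3b6*, the widest gap among the 7 members above 0 in both, and 89.0-fold apart in *Hsd3b1*. *Cyp17a1*, which makes the androgen precursors, was at 232 TPM in control 1 but at 1.31 TPM in control 2 and at 7.32 and 10.6 TPM in labelled KO 1 and 2. *Hsd17b3*, the enzyme of the last step to testosterone and a gene of adult Leydig cells, was the least abundant member in control 1, at 28.4 TPM. Its 1.27 TPM in labelled KO 1 was close to the 1.09 TPM of control 2, and labelled KO 2 was at 3.10 TPM.

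The make-up of the signal was not the same in the 4 libraries. *Insl3* accounted for 52.5% of the summed TPM in control 1, 46.4% in labelled KO 1 and 58.9% in labelled KO 2, but 24.4% in control 2. *Star* held 1.55% in control 1, 4.50% in labelled KO 1, 2.605% in labelled KO 2, and 30.2% in control 2, where it was the leading member. *Cyp17a1* held 6.32% in control 1 and 1.83 and 1.71% in labelled KO 1 and 2. The set therefore did not rise and fall by a single factor between libraries.

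**Figure D2:**
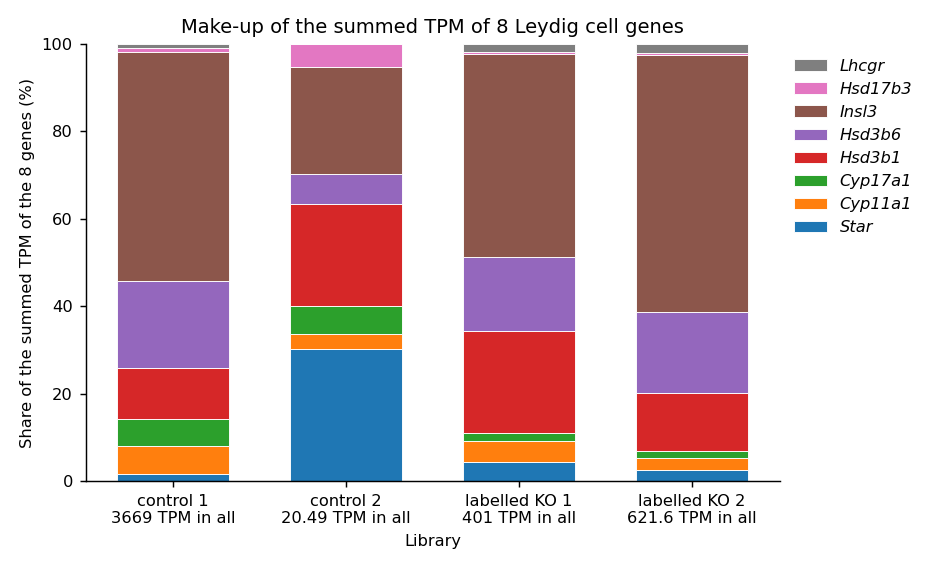
Stacked bars of the share of each of the 8 genes, in percent, in their summed TPM for each library, with that sum written below the bar. *Insl3* makes up 46.4 to 58.9% in every library but control 2, where *Star* leads with 30.2% of only 20.5 TPM.

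Ratios between members restate these shares and, like them, need no scaling between libraries. *Hsd3b6* was 1.72 times *Hsd3b1* in control 1, 1.40 times in labelled KO 2, 0.731 times in labelled KO 1 and 0.2998 times in control 2. *Cyp17a1* was level with *Cyp11a1* in control 1, at a ratio of 0.986, and stood at 0.391 in labelled KO 1 and 0.632 in labelled KO 2. From control 1 to labelled KO 1 the fold was smallest for *Star*, at 3.16, and largest for *Cyp17a1*, at 31.7. From control 1 to labelled KO 2 it ran from 3.01 for *Lhcgr* to 21.8 for *Cyp17a1*. In both comparisons *Cyp17a1* was the member furthest below control 1. Between the libraries labelled *Zfp541* KO the members were closer, with KO 2 over KO 1 running from 0.877 for *Hsd3b1* to 2.44 for *Hsd17b3*. Levels in control 2 were low enough that ratios there rest on values of a few TPM, of unknown counting error.

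The comparison of genotypes asks whether loss of ZFP541 changes the transcriptome of meiotic prophase cells, and it gave no call for any Leydig cell gene. In limma's fit on log2(TPM + 1) over 14512 genes, an FDR of 0.05 was passed by 0 of the 8 members upward and 0 downward, beside 0% of all genes in either direction. At an unadjusted p under 0.05 there were 0 members and 2091 genes, or 14.4%. The estimate was above 0 for 4 members and below 0 for 4, with a median of 0.35 against 0.28 over all genes tested. All 8 members passed the filter of a mean of 1 TPM, and did so also when any 1 library was left out. With 2 samples against 2, an exact permutation test of a single gene cannot give a p under 0.333. The fit had no term for the zygosity of the knock-in, in which the 2 controls differed.

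The control mean of *Insl3* was 965 ± 1357 TPM (SD, n = 2), and the mean with the KO label was 276 ± 127 TPM (SD, n = 2). Its log2 fold change was 1.29 with a 95% interval from -6.47 to 9.04 (adjusted p = 0.851 from limma). The sign of this estimate was opposite to that of the means, because the log scale gives the low value of control 2 more weight. *Cyp17a1* had a log2 fold change of -1.24 with an interval from -7.45 to 4.97 (adjusted p = 0.819 from limma). *Hsd17b3* had the smallest p of the 8, with -1.36 from -5.10 to 2.38 (adjusted p = 0.662 from limma). In each of the 8 genes the control mean was higher in TPM. The difference was below the SD between the controls, which follows from both libraries labelled *Zfp541* KO lying between 2 controls. The 95% interval of the log2 fold change held 0 in all 8 genes. Their standard errors ran from 1.06 to 2.87, against a median of 0.38 over all genes. The narrowest interval, that of *Star*, ran from -3.05 to 2.70 in log2. Changes of that size in either direction could thus have been missed, and larger ones in the other members.

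**Figure D3:**
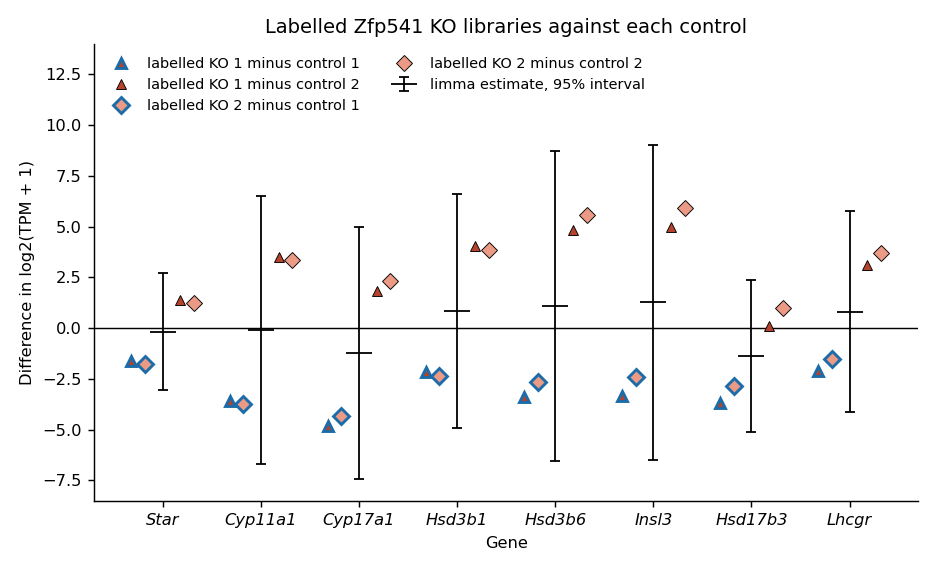
Difference in log2(TPM + 1) of each library labelled KO from control 1 (blue outline, left) and from control 2 (black outline, right) for the 8 genes, with limma's estimate over both controls (bar) and its 95% interval. The differences lie below 0 against control 1 and above 0 against control 2 in every gene, and every interval spans 0.

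The direction of the comparison differed with the control used, which follows from both libraries labelled *Zfp541* KO lying between the controls. Without control 1 all 8 estimates were above 0, with a median of 3.44, and 7 members were called higher and 0 lower, beside 40.5% and 10.3% of all genes (adjusted p from 0.00359 to 0.00927 from limma). *Hsd17b3* was not called there (log2 fold change 0.55, adjusted p = 0.360 from limma). Without control 2 all 8 were below 0, with a median of -2.95, and 8 were called lower and 0 higher, beside 13.5% and 16.4% of all genes (adjusted p from 0.0188 to 0.0296 from limma). In these fits the spread comes from the libraries labelled *Zfp541* KO alone, and the lone control is taken to vary like them. On that scale the controls differed by 3.01 (*Star*) to 8.33 (*Insl3*), and the libraries labelled *Zfp541* KO by 0.97 at most, in *Insl3*.

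Genes outside the 8 that followed their profile most closely were sought by Euclidean distance between values of log2(TPM + 1), centred over the 4 libraries, and the members' mean profile. The nearest was *Fabp3*, a fatty acid carrier, at a distance of 0.45 and with 607, 12.98, 85.6 and 123 TPM in control 1, control 2, labelled KO 1 and labelled KO 2. Others among the 10 nearest were *Prss35*, *Igfbp7*, *Rtn4rl1*, *Prlr*, *Akr1cl*, *Col3a1*, *Osr2* and *Serpina3c*, at distances up to 0.72. The median distance over 14504 genes was 4.11, and the members themselves lay from 0.81 (*Hsd3b1*) to 2.22 (*Star*) from their mean. *Akr1cl*, of the aldo-keto reductase family, had the highest level of the 10, with 850, 8.37, 128 and 174 TPM. *Prlr*, the prolactin receptor, was at 36.1 TPM in control 1 and 0.01 TPM in control 2. *Col3a1*, a fibrillar collagen of connective tissue, was at 109 TPM in control 1 and 1.58 TPM in control 2, so the nearest genes included one of stromal rather than Leydig cells.

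A list of 10 other Leydig cell markers had a summed level of 1390 TPM in control 1, 156 TPM in control 2, and 363 and 408 TPM in labelled KO 1 and 2. Of these, 8 had the members' order of libraries, against 20.3% of all genes. *Ptgds* had the reverse order, at 0.66, 3.50, 2.70 and 2.20 TPM in control 1, control 2, labelled KO 1 and labelled KO 2. *Fabp3*, named above as the nearest gene, belongs to this list and gave 607 TPM of the sum in control 1. *Vcam1*, an adhesion molecule, was at 176 TPM in control 1 and 0.44 TPM in control 2, with 47.7 and 67.8 TPM in labelled KO 1 and 2. *Ephx1*, an epoxide hydrolase, was at 197, 1.40, 40.4 and 48.6 TPM, and *Agt*, angiotensinogen, at 92.7, 0.56, 21.1 and 21.7 TPM in the order used above. *Inha*, the inhibin subunit that Sertoli cells also make, was nearly level, at 103 to 143 TPM.

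In summed level the wider pathway was far less uneven, but its genes differed. Between the controls *Akr1b7* was 11.1-fold apart, and *Hsd17b12*, the most abundant of the other steroid enzymes, 1.23-fold. The 18 other steroid enzymes added to 196 TPM in control 1, 74.0 TPM in control 2, and 134 and 109 TPM in labelled KO 1 and 2. Of the 10 tested, 6 had the members' order, against 20.3% of all genes. *Srd5a1*, the reductase that makes the stronger androgen dihydrotestosterone, was at 57.2 TPM in control 1 and at 6.75, 8.97 and 11.1 TPM in control 2, labelled KO 1 and labelled KO 2. *Akr1c14*, an aldo-keto reductase that acts on this product, was at 4.26, 0, 1.02 and 2.11 TPM, and *Akr1b7* at 9.84 TPM in control 1 and 0.89 TPM in control 2. *Hsd17b12*, which serves fatty acid elongation in many cells, was the highest of the list and lay between 46.8 and 71.0 TPM. *Hsd3b7*, of bile acid synthesis, was at 27.2 TPM in control 1 and 4.80 TPM in control 2.

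Electron transfer partners of the steroidogenic P450 enzymes were present in all libraries. *Fdx1*, the ferredoxin of the mitochondrial side-chain cleavage, was at 137 TPM in control 1 and 54.1 to 67.05 TPM in the others, and its reductase *Fdxr* at 126 TPM and 34.9 to 42.0 TPM. *Cyb5a*, cytochrome b5, which aids the lyase step of CYP17A1, was at 148 to 197 TPM with its highest level in control 2. *Cyb5r3* was at 221 TPM in control 1 and 78.0 to 116 TPM in the others, and *Cyb5b* at 69.9 to 113 TPM. The list of 6 was 1.59-fold higher in control 1 than in control 2, against 179-fold for the members.

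The 21 genes of cholesterol supply added to 1332 TPM in control 1, 720 TPM in control 2, and 823 and 810 TPM in labelled KO 1 and 2. *Hmgcs1*, early in cholesterol synthesis, was at 187, 37.3, 93.25 and 94.9 TPM. *Fdps*, a prenyl diphosphate synthase, did not have this order, with 170 TPM in control 1, 141 TPM in control 2, 75.1 TPM in labelled KO 1 and 66.6 TPM in labelled KO 2. *Npc2*, a cholesterol carrier of lysosomes, was at 80.1 to 99.6 TPM. Of the 21, 8 had the members' order, against 20.3% of all genes. In 5, both libraries labelled *Zfp541* KO were below both controls, against 12.1% of all genes.

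Of the 14 genes of steroidogenic regulation and cyclic AMP signalling, 8 had the members' order, against 20.3% of all genes. *Nr0b1* had the reverse order, at 17.6, 44.6, 43.15 and 31.8 TPM in control 1, control 2, labelled KO 1 and labelled KO 2. *Nr2f2*, a nuclear receptor of interstitial cells, was at 21.0, 1.40, 8.15 and 8.85 TPM, and *Cebpb* at 27.3, 3.09, 20.2 and 20.9 TPM. *Gnas*, *Prkar1a* and *Prkaca*, which nearly all cells use to signal through cyclic AMP, were the most abundant, at 410 to 569 TPM, 210 to 276 TPM and 103 to 129 TPM over the libraries. Among 8 hormone receptors, 3 of the 5 tested had the members' order, against 20.3% of all genes. These included *Prlr* and *Esr1*, the oestrogen receptor, *Esr1* with 16.3, 0.04, 2.25 and 3.67 TPM. *Rxfp2*, the receptor for INSL3, was at 4.90, 1.70, 0.81 and 1.32 TPM, and the glucocorticoid receptor *Nr3c1* at 8.01 to 25.5 TPM. In these 6 lists, from the other Leydig cell markers to the hormone receptors, 0 genes were called higher and 0 lower in limma at an FDR of 0.05. At an unadjusted p under 0.05 in limma the counts were 0 higher and 2 lower, beside 1549 higher and 542 lower of all 14512 genes. The 2 were *Fdps* and *Fdft1* of cholesterol synthesis, named here after their values were seen.

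**Figure D4:**
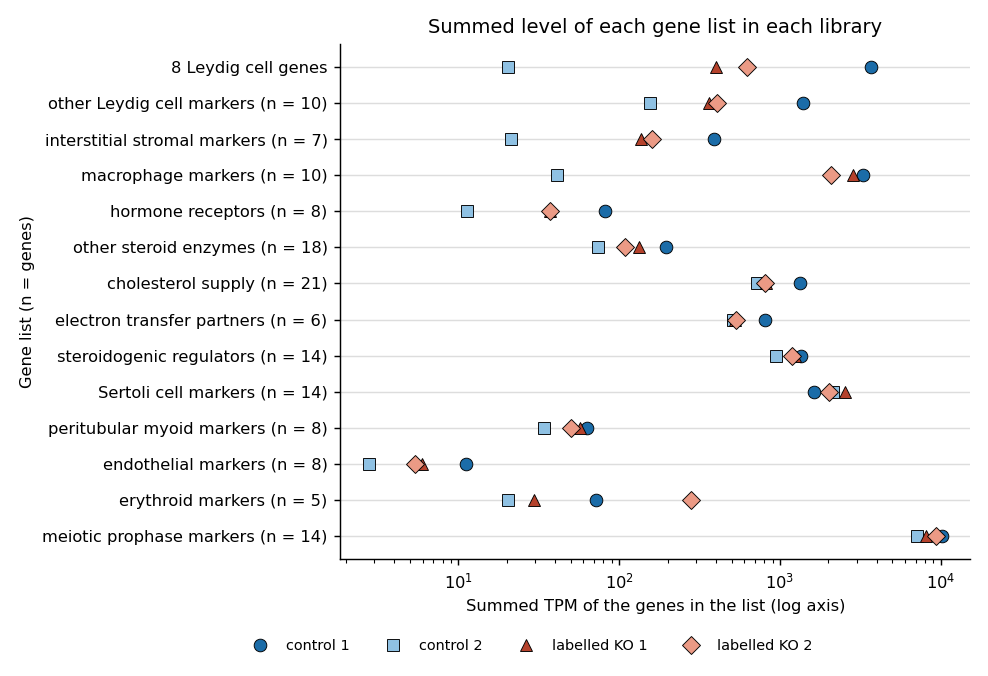
Summed TPM of each gene list on a log axis, with 1 point for each of the 4 libraries. The 8 Leydig cell genes, the macrophage markers and the interstitial stromal markers are lowest in control 2 by far. Hormone receptors and other Leydig cell markers are also lowest there, by less. Sertoli cell, electron transfer and meiotic lists lie close together.

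Markers of other somatic cells were read beside the members. The 10 macrophage markers added to 3307 TPM in control 1, 2846 TPM in labelled KO 1 and 2086 TPM in labelled KO 2, but 41.3 TPM in control 2. *Lyz2*, a lysozyme of macrophages, was at 1152, 11.0, 912 and 646 TPM in control 1, control 2, labelled KO 1 and labelled KO 2, and *Csf1r*, the receptor for their growth factor, at 209, 1.12, 196 and 140 TPM. *C1qb* and *C1qc*, of complement, were at 487, 7.10, 463 and 323 TPM and at 476, 4.79, 423 and 315 TPM. Like the members, these genes were lowest in control 2, and 9 of 10 had the same order of libraries, against 20.3% of all genes. Unlike the members, the macrophage markers differed little between control 1 and labelled KO 1, by a median of 0.17 in log2(TPM + 1). The members differed there by 3.38 and all genes tested by -0.17. The summed members were 1.11 times the summed macrophage markers in control 1, 0.141 times in labelled KO 1, 0.298 times in labelled KO 2 and 0.496 times in control 2.

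Interstitial stromal markers followed the members at a smaller scale, with 390 TPM in control 1, 21.4 TPM in control 2, and 136 and 160 TPM in labelled KO 1 and 2. All 6 genes tested had the same order, against 20.3% of all genes. *Dcn*, decorin, was at 88.5, 3.42, 42.8 and 52.0 TPM, *Col1a2* at 93.4, 2.61, 22.7 and 30.8 TPM and *Tcf21* at 25.3, 0.08, 5.51 and 8.07 TPM. Sertoli cell markers did not. Their 14 genes added to 1639 TPM in control 1 and 2142, 2556 and 2032 TPM in control 2, labelled KO 1 and labelled KO 2, and 7 of them had the reverse order, highest in control 2, which 10.6% of all genes had. *Aard* had 377 TPM in control 1 and 951 TPM in control 2, and *Clu*, clusterin, had 688 and 501 TPM. *Amh*, the anti-Müllerian hormone, was at 4.69 and 17.3 TPM and *Defb45* at 4.60 and 20.4 TPM. *Trf*, transferrin, was the 1 Sertoli marker with the members' order, at 127, 6.07, 86.7 and 86.6 TPM. No gene of these lists passed an FDR of 0.05 in limma. An unadjusted p under 0.05 in limma was reached by 1 Sertoli marker, upward, and by 0 macrophage and 0 stromal markers. Of all 14512 genes, 1549 reached it upward and 542 downward. The Sertoli marker was the protease gene *Ctsl*, with 219 and 256 TPM in controls 1 and 2 and 452 and 361 TPM in labelled KO 1 and 2. The part of macrophage or stromal RNA in the level of the members was not tested.

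Relative to the meiotic prophase markers of the same library, the summed members stood at 36.2% in control 1, 0.289% in control 2, 4.97% in labelled KO 1 and 6.65% in labelled KO 2. Of these 14 markers, *Ldhc*, the lactate dehydrogenase of germ cells, was at 3659, 1819, 768 and 1230 TPM and *Sycp3*, of the chromosome axis, at 1108, 1263, 2093 and 2196 TPM. *Ybx2*, an RNA-binding protein of germ cells, was at 2137, 1185, 1004 and 1362 TPM, and *Pgk2*, a glycolytic gene of late spermatocytes, at 79.0, 18.4, 1.59 and 2.71 TPM. Both controls were thus above both libraries labelled *Zfp541* KO in *Pgk2* and *Ldhc*, while the Leydig cell genes had a control on either side. In the meiotic list 5 of 14 genes were higher and 2 lower at an unadjusted p under 0.05 in limma, beside 1549 higher and 542 lower of all 14512 genes, and 0 passed the FDR.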

How the data were processed

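GFP-positive testis cells of 2 control *Zfp541*+/− animals and of 2 animals labelled *Zfp541* KO gave the RNA. Per the labels and methods, the authors trimmed reads with Trim Galore 0.5.0 and cutadapt 1.16, aligned them to mm10 with STAR 2.6.0a, and estimated expression with RSEM 1.3.1. They deposited TPM for each gene, which keeps no depth. Groups came from the sample titles.

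The 14512 genes whose mean reached 1 TPM were fitted on log2(TPM + 1) by genotype in R 4.3.3 with limma 3.58.1. The fit modelled the trend of the variance with the mean, and p-values were adjusted after Benjamini-Hochberg over all fitted genes (FDR 0.05). The procedure was tested on simulated data.

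The 8 members and the other lists were chosen with earlier results of these data known. Named were all members, 3 genes of each list with the highest mean TPM and 3 with the largest range on log2(TPM + 1), and the 10 genes nearest to the members' mean profile. *Zfp541* and *Rec8* served as checks. *Jak3*, *Hsd3b2*, *Hsd3b3*, *Fdft1*, *Ptgds* and *Nr0b1* were named after their values were seen. Some genes under this rule are not reported here. Read-length stretches were compared on both strands of GENCODE M21 transcripts. Promoters came from RefSeq (GRCm38.p6), with 6 of 8 members matched. Alternatives covered the pseudocount, filter, scaling, trend, replicate block and leaving out each sample.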

Additional observations from a re-analysis of the deposited data

How the results depend on the processing

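No paired fit is taken as the main one, since the replicate numbers in the labels are not tied to litters or days. Samples of the same number deviated from their group means with a correlation of -0.16 over genes. A fit with the replicate block called 0 genes higher and 0 lower (limma, FDR 0.05). The block with crossed numbers, added after seeing the data, called 7 higher and 80 lower. Leaving out samples in turn gave 0 to 5759 genes called higher and 0 to 1981 called lower. Both were 0 without labelled KO 1 or labelled KO 2, and 5759 and 1463 without control 1, and 2400 and 1981 without control 2. The pseudocounts, filters, scalings and the fit with no trend gave 0 and 0.

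The summed TPM of the 8 members in the libraries labelled *Zfp541* KO over the controls was 0.277. Leaving out 1 sample gave 0.139 to 24.95, the highest without control 1 and the lowest without control 2. Their median log2 fold change of 0.35 became -0.11 with the pseudocount at 5, -0.0061 after quantile normalization, and -2.95 to 3.44 when 1 sample was left out. *Cyp11a1* went from -0.10 to 0.36 with a pseudocount of 0.1. Over the fits that left out 1 sample, log2 fold changes ran from -1.68 to 1.33 for *Star*, -3.66 to 3.45 for *Cyp11a1*, -4.56 to 2.09 for *Cyp17a1*, -2.27 to 3.94 for *Hsd3b1*, -3.03 to 5.204 for *Hsd3b6*, -2.88 to 5.45 for *Insl3*, -3.27 to 0.55 for *Hsd17b3* and -1.81 to 3.43 for *Lhcgr*. In each gene the extremes came from leaving out a control. Their opposite signs follow from both libraries labelled *Zfp541* KO lying between the controls. Members were not read under the crossed block. Apart from the fits without a control and *Cyp11a1* at a pseudocount of 0.1, none of the other alternatives turned the sign of a member or brought it past the threshold. TPM holds no counts, so the error of the low values in control 2 is unknown.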

Other observations

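Endothelial markers added to 11.2, 2.78, 5.95 and 5.42 TPM in control 1, control 2, labelled KO 1 and labelled KO 2, with *Cdh5* at 7.94 TPM and *Esam* at 1.62 TPM in control 1 and *Pecam1* at 0.36 to 1.49 TPM. Peritubular myoid markers added to 63.0, 34.1, 57.1 and 50.5 TPM. Of the 5 tested, 2 had the members' order, against 20.3% of all genes. *Tpm2* was at 27.9, 0.57, 3.99 and 5.87 TPM and *Mylk* at 14.6 to 27.4 TPM. Lowest in control 1 were *Tagln*, at 7.46, 7.69, 11.8 and 10.3 TPM, *Acta2*, at 2.99, 9.33, 10.6 and 6.01 TPM, and *Actg2*, at 0, 0.27, 1.06 and 0.72 TPM.

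The erythroid markers had their highest level in labelled KO 2, at 280 TPM against 71.5, 20.3 and 29.7 TPM in control 1, control 2 and labelled KO 1. *Hba-a1* was at 62.0, 17.1, 25.8 and 0 TPM and *Hba-a2* at 0, 0, 0 and 244 TPM in the order control 1, control 2, labelled KO 1 and labelled KO 2. These are near-identical gene copies, so the division of reads between them is uncertain. *Hbb-bs* was at 22.35 TPM in labelled KO 2 and listed at 0 in the other libraries. The summed level of the 5 erythroid markers was 9.43-fold higher in labelled KO 2 than in labelled KO 1. In limma 0 genes of the endothelial, myoid and erythroid lists passed an FDR of 0.05. An unadjusted p under 0.05 in limma was reached by 0 of them and by 14.4% of all genes.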
